A study of Mus musculus with 24 samples.

Results

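The insulin-like growth factor (IGF) receptor gene Igf1r and the binding protein genes Igfbp2, Igfbp3, Igfbp4, Igfbp5, Igfbp6 and Igfbp7 were followed through 24 libraries of sorted mouse tracheal epithelium. The members were given by name, 7 genes of 35855 in the gene table, by a rule that sets no threshold on a measured value, although the set was proposed with earlier results of these data known. Each library held RNA from 1000 cells of naive, wild-type female mice, of the C57BL/6 strain per the series title, whose age is not given in the labels. The libraries formed 3 groups of 8: cells sorted as high for BCAM (basal cell adhesion molecule, a laminin-binding surface protein), cells sorted as low for it, and differentiated epithelial cells. In every group 5 libraries (replicates 1 to 5) were labelled batch 1 and 3 (replicates 6 to 8) batch 2, and the labels do not say what a batch was. No treatment or transgene was part of any group. Nothing in the labels says whether libraries came from separate animals, so the p-values measure the spread between these libraries, which may be technical.

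IGF1 and IGF2 are secreted growth factors that bind the receptor tyrosine kinase encoded by Igf1r, which signals through insulin receptor substrates to PI3K and AKT and to the MAP kinases. Most IGF outside cells is held by binding proteins, which prolong its life and limit or deliver it to the receptor until proteases release it. IGFBP2 to IGFBP6 bind IGFs with high affinity, whereas IGFBP7 binds them weakly and is also known as a matrix-associated protein. Basal cells are the progenitors of the tracheal epithelium, and secretory and ciliated cells are its main differentiated cells.

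Estimated counts per library totalled 1824619 to 4440072. Summed levels of 8 basal cell markers (among them Krt5, Trp63 and Krt15) were 7408 to 10050 CPM (counts scaled to the library total, adjusted by TMM) in BCAM high libraries, against 6557 to 7771 for BCAM low, while differentiated libraries had 272 to 2563. Most of the sum in differentiated libraries was Krt15, with a mean of 1464 CPM, and Krt5 and Trp63 had means of 0.845 and 8.16 CPM there. Between the BCAM groups Krt15 was higher in BCAM low (means of 3062 and 3478 CPM), whereas Krt5 and Trp63 were higher in BCAM high. The differentiated group stood apart between the batches. Its 7 secretory markers summed to 288000 to 423200 CPM in batch 1 and 13450 to 88430 in batch 2, and its 7 thyroid follicle genes, which tracheal epithelium does not make in quantity, summed to 13650 to 25780 and 48900 to 117200 CPM. Thyroid sums in the BCAM groups were 2.44 to 39.3 CPM in batch 1 and 5.50 to 1264 in batch 2. Comparisons with the differentiated group are therefore also given without its batch 2 libraries where that changed a call.

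Igfbp2 and Igfbp5 lie side by side on chromosome 1, transcribed towards each other with 5457 bp between their ends. In GENCODE M21 on GRCm38, Igfbp2 (ENSMUSG00000039323) spans chr1:72824503-72852474 on the plus strand and Igfbp5 (ENSMUSG00000026185) spans chr1:72857932-72874884 on the minus strand. Igfbp3 (ENSMUSG00000020427) is at chr11:7206086-7213923 on the minus strand and Igfbp4 (ENSMUSG00000017493) at chr11:99041244-99054392 on the plus strand. Igf1r (ENSMUSG00000005533) covers chr7:67952827-68233668 and Igfbp6 (ENSMUSG00000023046) chr15:102144362-102149511, both on the plus strand. Igfbp7 (ENSMUSG00000036256) covers chr5:77349240-77408041 on the minus strand and overlaps Polr2b on the other strand, so without a statement on strand its reads cannot be fully told from those of Polr2b. These are coordinates of the annotation used here and may differ from those of the authors' index.

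The RefSeq table of promoters (GRCm38.p6) held all 7 members. The 250 bases upstream of the start are printed for Igfbp5, which differed most clearly between the BCAM groups, and for Igfbp3 and Igfbp7, which were both higher in the BCAM groups than in differentiated cells. Igfbp5 is chr1:72874866-72875115, Igfbp7 chr5:77408046-77408295 and Igfbp3 chr11:7213924-7214173, all on the minus strand and written 5′ to 3′, with matches to the GC box GGGCGG (either strand) in capitals.
Igfbp5: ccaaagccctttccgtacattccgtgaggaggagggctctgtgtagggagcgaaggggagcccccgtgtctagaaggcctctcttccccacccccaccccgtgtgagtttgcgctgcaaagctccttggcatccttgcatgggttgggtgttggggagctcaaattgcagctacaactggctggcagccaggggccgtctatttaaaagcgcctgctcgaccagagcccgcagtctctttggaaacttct
Igfbp7: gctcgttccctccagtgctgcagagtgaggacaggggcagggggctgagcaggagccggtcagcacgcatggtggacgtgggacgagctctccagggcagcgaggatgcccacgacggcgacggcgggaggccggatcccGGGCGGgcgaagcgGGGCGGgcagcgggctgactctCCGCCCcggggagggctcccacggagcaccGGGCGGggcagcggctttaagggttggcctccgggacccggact
Igfbp3: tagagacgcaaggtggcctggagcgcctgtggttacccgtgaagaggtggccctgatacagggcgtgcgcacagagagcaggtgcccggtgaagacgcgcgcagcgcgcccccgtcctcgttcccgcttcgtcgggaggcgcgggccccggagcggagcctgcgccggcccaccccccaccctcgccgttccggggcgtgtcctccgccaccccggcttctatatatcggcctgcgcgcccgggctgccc
Over the 300 bases from 250 before to 50 after the start, the Igfbp7 promoter held 4 GC boxes, Igf1r 2 and the first of the 2 Igfbp2 entries 3, and those of Igfbp3, Igfbp4, Igfbp5 and Igfbp6 held none. A GC box occurred in 35.7% of the 32851 mouse promoters of this length. The letters C and G made up 73.3% of the Igfbp7 window, which held 33 CpG pairs, 71.7% of the Igfbp3 window with 37, and 56.3% of the Igfbp5 window with 10. The other motifs were also read on either strand. The TATA box TATAAA was found for Igfbp4, at position -28 from the start (13.6% of all promoters). For Igfbp6 only its reverse TTTATA was found, at -148. The E-box CACGTG was found in the first Igfbp2 entry (7.15%), and the FoxO core GTAAACA in none of the 8 (3.65%). These are matches of letters and say nothing of binding.

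Igfbp5 was lower in BCAM high than in BCAM low and in differentiated cells, Igfbp7 and Igfbp3 were higher in both BCAM groups than in differentiated cells, and Igf1r depended on the batch. In the fit over all 24 libraries (edgeR's quasi-likelihood test with batch as a covariate, Benjamini-Hochberg adjusted p under 0.05 over 12211 genes), 6 of the 7 members could be tested, and Igfbp2 was too low to pass the filter on counts. BCAM high against BCAM low gave 1 called member, Igfbp5, which was lower. Of all genes 6.95% were called, 2.34% higher and 4.61% lower. BCAM high against differentiated gave 3 (Igfbp3 and Igfbp7 higher, Igfbp5 lower) against a background of 41.2% of all genes, 19% higher and 22.2% lower, and BCAM low against differentiated gave 2 (Igfbp3 and Igfbp7 higher) against 33.4%, 16.3% higher and 17.1% lower. Between the batches, 3 members were lower in batch 2 (Igfbp3, Igfbp5 and Igfbp7), where 21.3% of all genes were called, 11.6% higher and 9.75% lower. The difference between the batches was called for 0 members in BCAM high against BCAM low, where 1.06% of all genes were called, for 0 in BCAM high against differentiated, where 8.69% were (5.27% higher, 3.41% lower), and for 1, Igf1r, in BCAM low against differentiated, where 11.4% were (6.71% higher, 4.7% lower). The shares of called genes against differentiated cells and between batches are high, so a call there does not set a member apart. In bulk RNA, fewer cells that make a transcript and less of it per cell cannot be told apart.

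**Figure D1:**
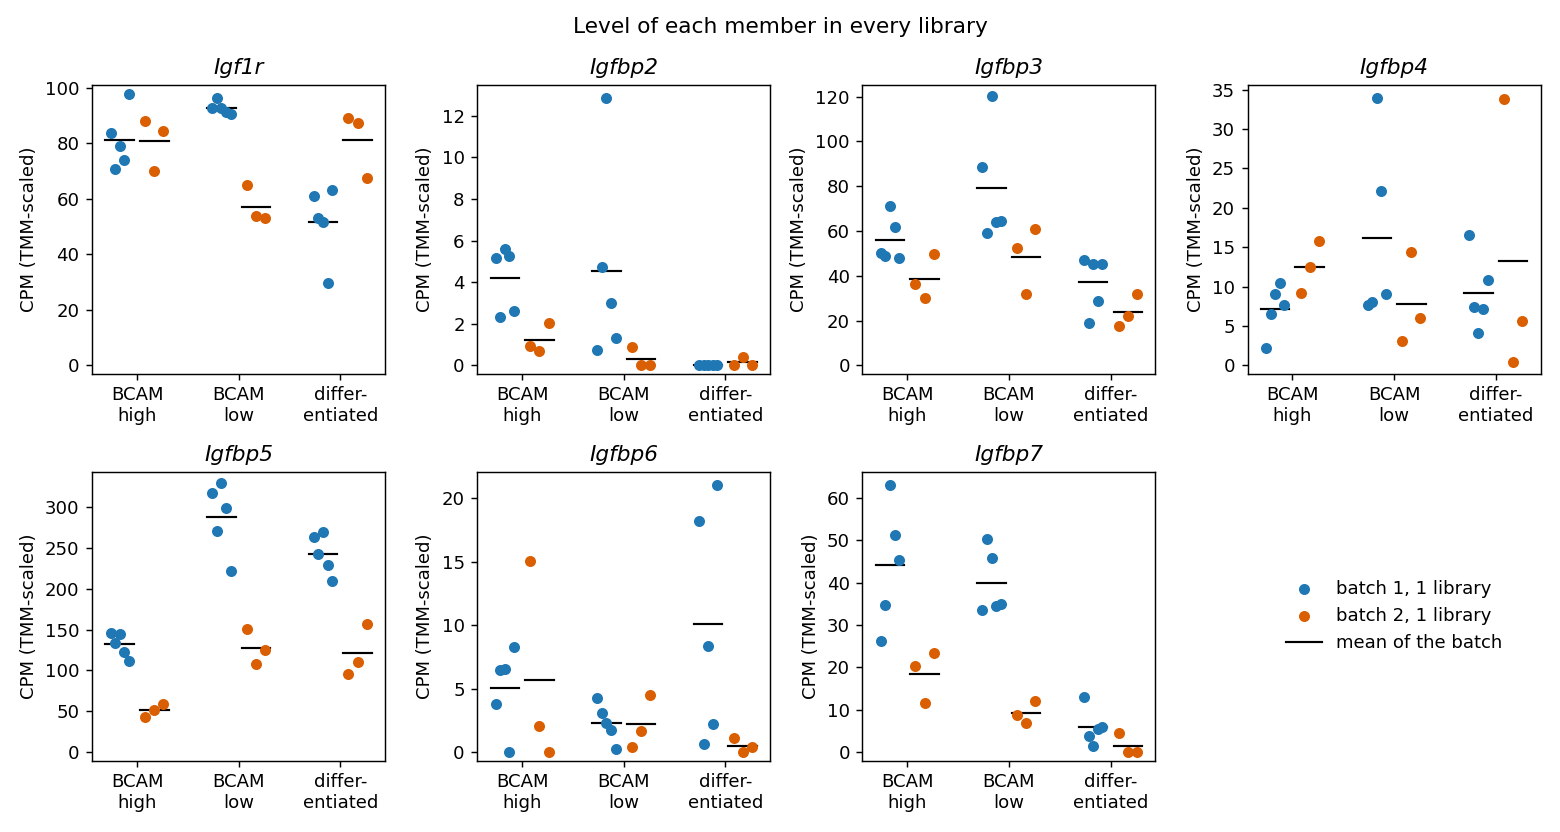
Level of each of the 7 members in CPM (vertical axes, linear, own scale for each gene) in the 8 libraries of each group, with batch 1 in blue, batch 2 in orange and the mean of each batch as a line. Igfbp5 in BCAM high lay below both other groups within each batch, from 112.1 to 146.4 CPM in batch 1 and 43.3 to 59.0 in batch 2.

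Igf1r, the receptor gene, was expressed in every library. BCAM high libraries ranged from 69.97 to 97.6 CPM (median 81.4), BCAM low libraries from 52.99 to 96.2 (median 90.9) and differentiated libraries from 29.8 to 88.9 (median 62.1), and the pooled groups overlapped. BCAM high and BCAM low did not differ by test (0.02 ± 0.167, log2 and SE, edgeR adjusted p = 0.964). Within batch 1, the BCAM low libraries lay close together at 92.7, 96.2, 92.8, 91.2 and 90.5 CPM, the differentiated libraries at 60.9, 53.1, 51.6, 29.8 and 63.2. Within batch 2 the order turned, with 64.9, 53.8 and 52.99 CPM in BCAM low and 88.9, 87.3 and 67.5 in differentiated libraries. The groups did not overlap in either batch, in opposite directions.

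The log2 fold change of Igf1r in BCAM low against differentiated was 0.84 ± 0.153 in batch 1 (SE, edgeR adjusted p = 6.33e-05) and -0.50 ± 0.197 in batch 2 (edgeR adjusted p = 0.0691). The difference between the batches was itself called, at -1.34 ± 0.25 (edgeR interaction, adjusted p = 0.000396), where 11.4% of genes had a called difference. BCAM high stayed level between the batches, at a mean of 81.0 ± 10.5 CPM (SD, n = 5) and 80.8 ± 9.50 (n = 3), while BCAM low fell from batch 1 to batch 2 by 0.69 on the log2 scale (SE 0.178, edgeR adjusted p = 0.00889) and differentiated cells rose by 0.65 (SE 0.176, edgeR adjusted p = 0.00787). Pooled over batches, BCAM high against differentiated was 0.36 ± 0.17 (edgeR adjusted p = 0.0877) and BCAM low against differentiated 0.34 ± 0.172 (edgeR adjusted p = 0.128). Without the batch 2 differentiated libraries these became 0.78 (edgeR adjusted p = 0.000293) and 0.72 (edgeR adjusted p = 0.000747), and leaving out differentiated replicate 6 or 7 alone gave 0.45 with an adjusted p of 0.033 or 0.0328 in the first of them. On log2(TPM + 0.1) the pooled values were 1.08 (limma adjusted p = 0.00395) and 0.94 (limma adjusted p = 0.017), or 0.33 and 0.45 relative to the shift of all genes. On that scale the 3 called members in BCAM high against differentiated were Igf1r, Igfbp3 and Igfbp7, all higher, beside 7688 of the 12211 genes called. The thyroid sums of the differentiated libraries were higher and their secretory sums lower in batch 2, and 7 ciliated markers summed to 7.55 to 21.03 CPM in the batch 1 and 172 to 312.1 in the batch 2 libraries of BCAM low. The part of these cells in the Igf1r values was not tested.

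Igfbp5, a secreted binding protein that also attaches to extracellular matrix, was the member with the clearest difference between the BCAM groups. In batch 1 the BCAM high libraries had 146.4, 133.4, 145.0, 122.2 and 112.1 CPM and the BCAM low libraries 317.8, 270.7, 329.0, 299.4 and 221.2. In batch 2 they had 43.3, 51.9 and 59.0 CPM against 150.2, 107.6 and 125.5. Every BCAM high library was below every BCAM low library of its own batch, and the groups overlapped only when batches were pooled.

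The log2 fold change of Igfbp5 was -1.19 ± 0.115 (SE, edgeR adjusted p = 6.16e-08), and by p-value it ranked 7 of the 12211 genes tested. It was -1.13 ± 0.137 within batch 1 (edgeR adjusted p = 2.24e-06) and -1.31 ± 0.183 within batch 2 (edgeR adjusted p = 1.66e-05), and the batches did not differ by test (difference -0.19 ± 0.225, edgeR adjusted p = 0.814). Differentiated libraries held 263.0, 242.7, 269.0, 229.4 and 210.1 CPM in batch 1 and 95.1, 110.8 and 157.2 in batch 2, above all BCAM high libraries of the same batch and among those of BCAM low. Against differentiated cells BCAM high was lower by test (-1.01 ± 0.115, edgeR adjusted p = 3.22e-08) and BCAM low was not called (0.18 ± 0.113, edgeR adjusted p = 0.232).

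The calls against differentiated cells turned on the scale. On log2(TPM + 0.1), where TPM are transcript levels scaled for length and library, the median over all genes tested was itself shifted by 0.75 for BCAM high and 0.48 for BCAM low, and the limma values of Igfbp5 were -0.25 (adjusted p = 0.182) and 0.75 (adjusted p = 0.00073). Relative to those shifts they were -1.002 and 0.27. Between the BCAM groups the TPM scale kept the call, at -1.003 (limma adjusted p = 0.000638) with a shift of 0.26. The sum of 7 suprabasal and hillock markers moved in the same order between the BCAM groups within batch 1. It was 501.7 to 707.8 CPM in BCAM high and 2144 to 2444 in BCAM low. Its largest part there was Krt4, with means of 364.6 and 1085 CPM over both batches. Sprr1a went the other way (15.15 and 10.57 CPM), and the other markers had higher means in BCAM low. Batch 1 differentiated libraries had sums of 1424 to 1861 CPM. Over both batches the differentiated means were 777.0 CPM for Cldn3 and 11.97 for Krt13. In batch 2 the sums were 375.6 to 904.0 CPM in BCAM high and 988.3 to 1333 in BCAM low. The part of these markers in the Igfbp5 difference was not tested.

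Igfbp7, which encodes the weak IGF binder, was high in both BCAM groups and low in differentiated cells. The BCAM high libraries had 26.2, 34.7, 63.0, 51.2 and 45.2 CPM in batch 1 and 20.3, 11.5 and 23.5 in batch 2. For BCAM low the values were 33.7, 50.2, 45.8, 34.5 and 34.98 CPM, then 8.71, 6.78 and 12 in batch 2. Differentiated libraries had 13.1, 3.71, 1.56, 5.52 and 5.94 CPM, and then 4.50 and 0 in the other 2. Within each batch no BCAM library reached down to a differentiated library.

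The log2 fold change of Igfbp7 against differentiated cells was 3.15 ± 0.383 for BCAM high (SE, edgeR adjusted p = 2.04e-07) and 2.72 ± 0.384 for BCAM low (edgeR adjusted p = 3.61e-06). Both were also called within each batch, at 2.88 and 3.83 for BCAM high and 2.74 and 2.81 for BCAM low. For the latter, a fit on the batch 2 libraries alone gave an edgeR adjusted p of 0.0609. BCAM high against BCAM low was 0.43 ± 0.308 (edgeR adjusted p = 0.463), with an overlap of the groups in both batches.

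Fibroblasts also make Igfbp7, and the sum of 9 fibroblast markers spanned 175.7 to 674.5 CPM for BCAM high, 67.9 to 413.1 for BCAM low and 2.84 to 318.1 for differentiated libraries. Most of it in the BCAM groups was Dcn, with means of 377.8, 208.4 and 2.21 CPM in the 3 groups. The other 8 fibroblast markers together had medians of 14.3, 22.95 and 45.6 CPM and means of 15.1, 50.98 and 114.4 CPM. Their medians were 13.3, 17.7 and 56.8 CPM in batch 1 and 18.1, 41.5 and 4.71 CPM in batch 2, so the order of the groups was not the same in the batches. Col1a1, Col3a1 and Pdgfra were at most 3.82, 4.53 and 2.33 CPM in BCAM high libraries, 34.5, 49.5 and 4.65 CPM in BCAM low and 51.2, 194.8 and 59.2 CPM in differentiated libraries. Lum was low, with means of 2.37 and 4.59 CPM (medians of 0.511 and 1.44) in BCAM high and BCAM low and a mean of 0.141 in differentiated libraries, 7 of which were at 0. By mean, Dcn, Lum and Pi16 were higher in both BCAM groups than in differentiated libraries. Col1a1, Col1a2, Col3a1, Pdgfra, Dpt and Mfap5 had their highest mean in differentiated libraries, where Igfbp7 was lowest. In both BCAM groups Dcn fell with Igfbp7 from batch 1 to batch 2, from a mean of 499.3 to 175.2 CPM in BCAM high. The summed endothelial markers, of a further cell type known for Igfbp7, were 29.9 to 70.0, 22.5 to 72.6 and 6.83 to 51.3 CPM in the 3 groups. The part of fibroblasts and of endothelial cells in the Igfbp7 values was not tested.

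**Figure D2:**
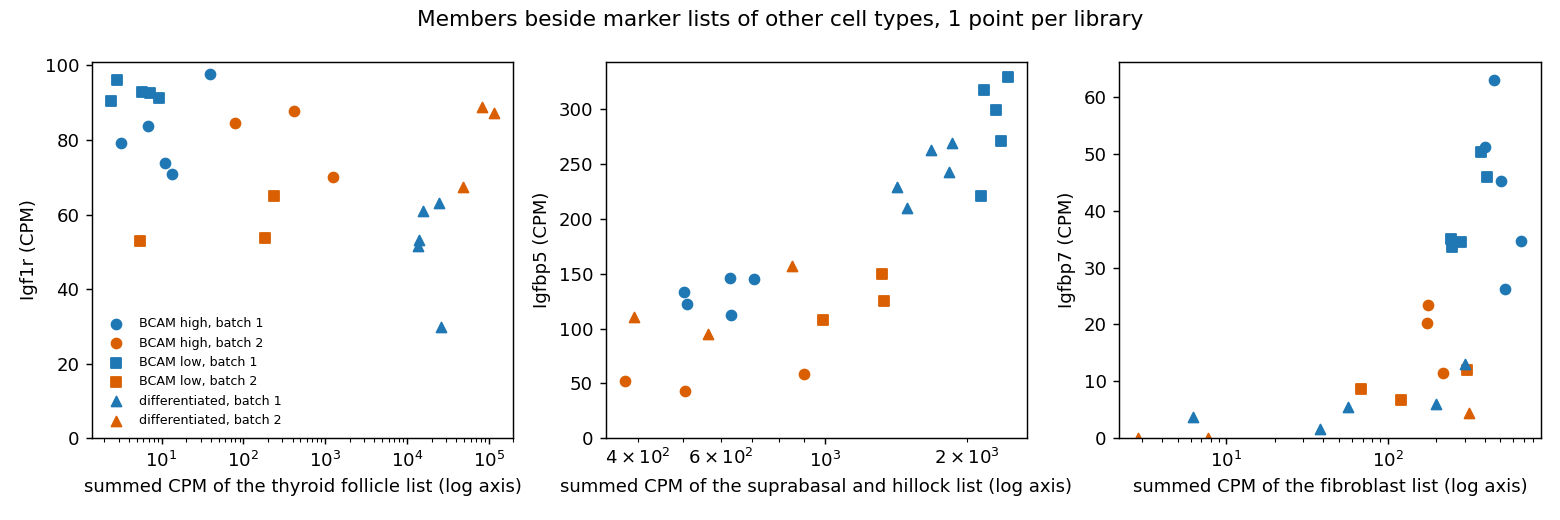
CPM of Igf1r, Igfbp5 and Igfbp7 (vertical, linear) against the summed CPM of the thyroid follicle, suprabasal and hillock, and fibroblast marker lists (horizontal, log axis), 1 point per library, with groups by shape and batches by colour. Differentiated libraries stand at 13650 CPM or more of thyroid genes, and Igfbp5 was highest in the batch 1 BCAM low libraries, whose suprabasal and hillock sums were 2144 to 2444 CPM. The batch 1 differentiated libraries had sums of 1424 to 1861 CPM on that list and 210.1 to 269.0 CPM of Igfbp5. In batch 2 differentiated libraries these were 393.5 to 852.4 CPM and 95.1 to 157.2 CPM.

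Igfbp3, the main carrier of IGF in blood and a growth inhibitor in many epithelia, was, like Igfbp7, higher in both BCAM groups than in differentiated cells, with smaller fold changes. BCAM high libraries spanned 29.9 to 71.3 CPM (median 49.4), BCAM low libraries 31.8 to 120.1 (median 62.6) and differentiated libraries 17.5 to 47.3 (median 30.2). BCAM low libraries lay above all differentiated libraries within each batch, by 31.8 against 31.7 CPM at the closest in batch 2. The log2 fold change was 1.06 ± 0.191 for BCAM low (SE, edgeR adjusted p = 7.07e-05) and 0.63 ± 0.191 for BCAM high (edgeR adjusted p = 0.00893). The second was not called within either batch on its own (0.59 with an edgeR adjusted p of 0.0611, and 0.69 with 0.105). BCAM high was below BCAM low by 0.43 ± 0.183 without passing the threshold (edgeR adjusted p = 0.161).

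Igfbp2, a binding protein typical of fetal and proliferating epithelia, was near the limit of detection. Its counts summed to 92 over BCAM high, 99 over BCAM low and 1 over differentiated libraries. BCAM high libraries had 5.18, 2.35, 5.60, 5.24 and 2.62 CPM in batch 1 and 0.922, 0.696 and 2.05 in batch 2. For BCAM low the values were 0.748, 4.72, 12.8, 3.02 and 1.33 CPM in batch 1, then 0.871 and 0 in the other 2. In differentiated cells 7 of 8 libraries were at 0, which allows up to 3 counts in each, and the count of 1 came from replicate 7. The ratio of summed counts over scaled totals was 49.6 for BCAM high against differentiated (95% interval 8.69 to 1982) and 55.4 for BCAM low (9.71 to 2210), with exact intervals that cover counting error only.

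A two-sided exact permutation test of the Igfbp2 mean CPM within batches, over 5040 arrangements, was added after its values were seen. BCAM high exceeded differentiated by 3.03 CPM (exact permutation, adjusted p = 0.00119 over 3 comparisons) and BCAM low by 2.89 CPM (exact permutation, adjusted p = 0.00595). Within batch 2 alone the differences were 1.08 and 0.148 CPM and were not called by the exact permutation test, where 3 libraries against 3 cannot go below p = 0.1. The BCAM groups did not differ by test (0.142 CPM, exact permutation adjusted p = 0.956). That value rests on BCAM low replicate 3: without it BCAM high was higher by 1.56 CPM (exact permutation adjusted p = 0.0405).

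Igfbp4, the substrate of the protease pappalysin, and Igfbp6, which prefers IGF2, were low and scattered. Igfbp4 levels were 2.18 to 15.8 CPM for BCAM high, 3.05 to 33.9 for BCAM low and 0.428 to 33.8 for differentiated libraries, and the groups overlapped in both batches. Igfbp6 ranged from 0 to 15.1, 0.221 to 4.50 and 0 to 21.1 CPM in the same order. Its batch 1 differentiated libraries held 18.2, 0.618, 8.34, 2.21 and 21.1 CPM, so 2 of the 5 libraries carried most of its signal. Within differentiated cells Igfbp6 was lower in batch 2, by -4.32 ± 1.531 (log2, SE, edgeR adjusted p = 0.0491). Neither gene was called in a comparison of groups, with edgeR adjusted p-values of 0.283 to 0.993. The standard errors were wide, from 0.526 to 0.9 on the log2 scale, so differences of about that size would not have been detectable.

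**Figure D3:**
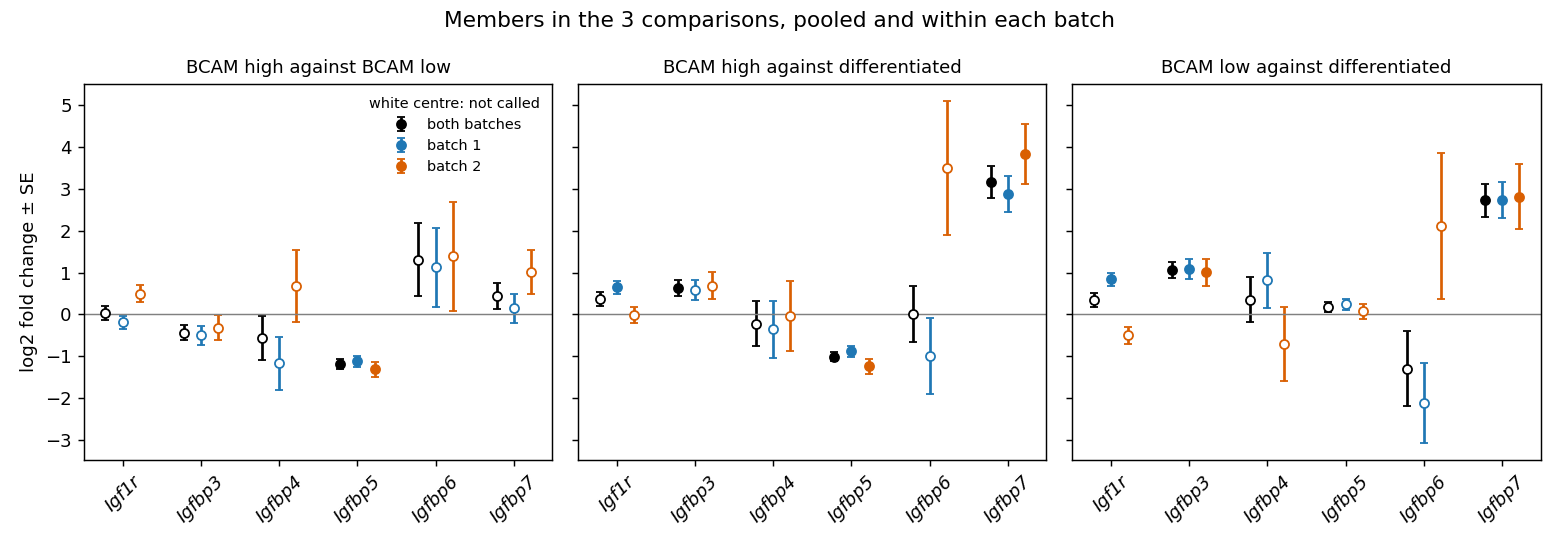
Log2 fold change of the 6 tested members with its standard error as bars (vertical) in the 3 comparisons of groups, pooled with batch as a covariate (black) and within batch 1 (blue) and batch 2 (orange), where a white centre marks a value that was not called. Igfbp5 and Igfbp7 kept their direction in both batches, at -1.13 and -1.31 for Igfbp5 between the BCAM groups, and Igf1r turned from 0.84 to -0.50 in BCAM low against differentiated. The wide orange bars of Igfbp6 against differentiated cells rest on 3 counts in the batch 2 differentiated libraries.

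Levels of different genes were compared per length, in TPM. The 6 binding proteins summed to 101.1 ± 27.9 TPM for BCAM high (SD, n = 8), 109.4 ± 44.3 for BCAM low and 43.1 ± 15.2 for differentiated libraries. In BCAM high Igfbp7 made up 37.4% ± 7.89 (SD, n = 8) of that sum, Igfbp3 24.4% ± 3.71 and Igfbp5 18.4% ± 4.93. In BCAM low the share of Igfbp5 was 35.2% ± 4.61 and that of Igfbp7 24.2% ± 9.40. In differentiated cells Igfbp5 took 52.8% ± 14.8 and Igfbp7 5.59% ± 4.49, while Igfbp3 stayed at 22.3% ± 7.35. Igfbp5 shares did not overlap between BCAM high (at most 27.9%) and BCAM low (at least 30.04%).

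**Figure D4:**
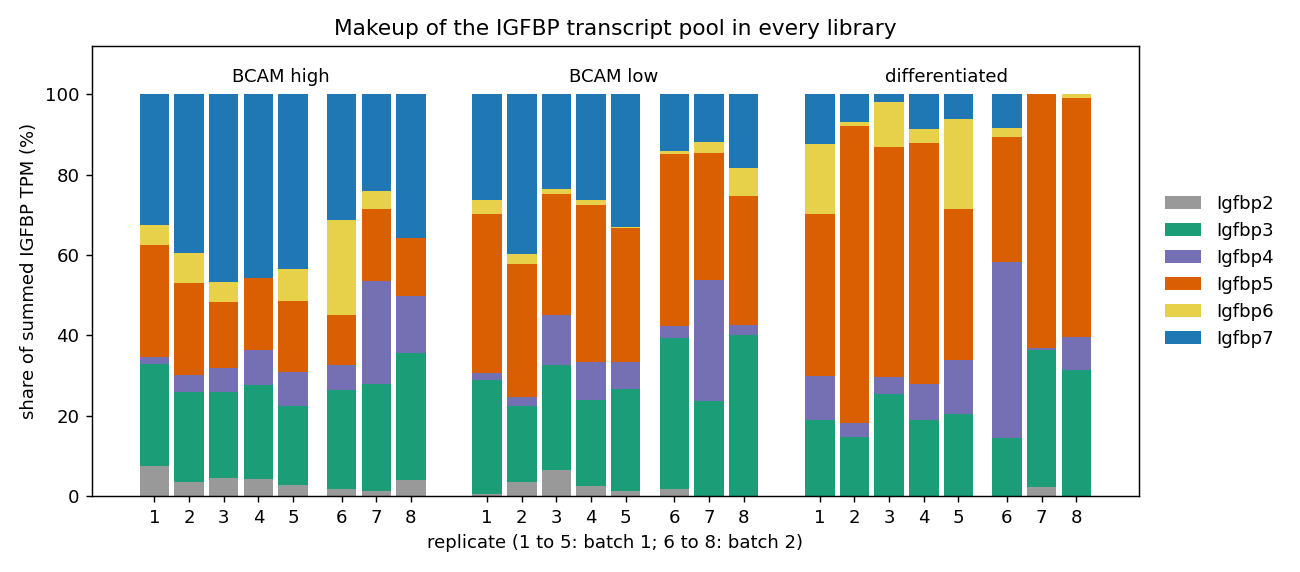
Share of each binding protein gene in the summed IGFBP TPM of a library (vertical, percent), 1 bar per library, by group and replicate, with a gap between batches. Igfbp7 (blue) made up 24.2% to 46.8% of the sum in BCAM high libraries and at most 12.4% in differentiated ones, where Igfbp5 (orange) took 31.2% to 73.8%.

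The ratio of Igfbp7 to Igfbp5 was taken within each library. As log2 of (TPM + 0.1) its mean was 1.03 ± 0.486 for BCAM high (SD, n = 8), -0.63 ± 0.633 for BCAM low and -3.999 ± 2.39 for differentiated libraries. BCAM high lay above BCAM low by 1.66 (two-sided exact permutation within batches, adjusted p = 0.000794 over 3 comparisons) and above differentiated by 5.03 (exact permutation, adjusted p = 0.000595), and BCAM low lay above differentiated by 3.37 (exact permutation, adjusted p = 0.000595). The lowest BCAM high library, at 0.23, was within the BCAM low range, whose highest was 0.27. In batch 1 alone the differences were 1.28, 4.04 and 2.76 (exact permutation, adjusted p = 0.0159, 0.0119 and 0.0119). In batch 2 alone they were 2.291, 6.686 and 4.395 and were not called (exact permutation, adjusted p = 0.1 for each). Differentiated replicates 7 and 8 had no Igfbp7 count, so their ratios of -7.305 and -7.821 are set by the pseudocount. The sizes of the pooled and batch 2 differences from that group depend on it. With a pseudocount of 1 the pooled differences were 3.91 for BCAM high and 2.32 for BCAM low, and no batch 1 library was at 0. This ratio was chosen after the values of both genes were seen, so its p-values add no independent test to the calls of the genes. Between the BCAM groups Igfbp5 was called and Igfbp7 was not.

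By mean TPM the order in BCAM high was Igfbp7 (39.6 ± 18.2, SD, n = 8), Igfbp3 (24.1 ± 5.12), Igfbp5 (18.6 ± 6.66), Igf1r (14.9 ± 4.46), Igfbp4 (8.61 ± 4.81), Igfbp6 (6.22 ± 6.06) and Igfbp2 (3.98 ± 2.41). In BCAM low it was Igfbp5 (38.1 ± 15.1), Igfbp7 (28.96 ± 17.7), Igfbp3 (28.8 ± 10.4), Igf1r (14.1 ± 5.94), Igfbp4 (8.38 ± 7.70), Igfbp2 (2.80 ± 3.81) and Igfbp6 (2.44 ± 1.90). In differentiated cells it was Igfbp5 (21.7 ± 6.12), Igfbp3 (9.37 ± 3.44), Igf1r (7.90 ± 5.21), Igfbp4 (5.03 ± 4.74), Igfbp6 (4.15 ± 5.42), Igfbp7 (2.74 ± 2.84) and Igfbp2 (0.0678 ± 0.192). These means pool batches that differ: in BCAM low Igfbp7 took 29.8% ± 6.58 (SD, n = 5) of the binding protein sum in batch 1 and Igfbp3 24.1% ± 3.77, against 14.8% ± 3.30 (n = 3) and 33.9% ± 8.79 in batch 2. None of the 18 pairs of neighbours in these orders differed after adjustment, by an exact sign-flip permutation test over the 8 libraries (smallest p 0.007812, the smallest it can give, adjusted 0.0562). The nearest were Igfbp5 over Igfbp3 in differentiated cells and Igfbp3 over Igf1r in BCAM low, each in 8 of 8 libraries.

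For every member but Igfbp2 the same transcript led in all groups. Igfbp5-201 took 99.2%, 94.7% and 96.2% of its gene in BCAM high, BCAM low and differentiated libraries, and Igfbp6-201 and Igfbp7-201 took 100%. For Igfbp2, Igfbp2-202 led in BCAM high with 57.2% of 92 counts. Igfbp2-201 led in BCAM low with 49.9% of 99 counts. Igf1r-201, the full-length coding transcript, took 87.7%, 87.0% and 86.9% of the Igf1r estimated counts in BCAM high, BCAM low and differentiated libraries, and the rest went to annotated retained-intron transcripts. Igfbp3-201 took at least 98.5% of its gene in every group. Igfbp4-201 took 68.5%, 75.6% and 71.5%, with 18.9%, 13.4% and 17.3% for Igfbp4-203, annotated as a processed transcript without a coding frame. Division of reads between transcripts is an estimate, and shares of genes as low as Igfbp4 rest on 156.3 to 395.1 estimated counts for a group.

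Between the batches, with group as a covariate, Igfbp5 fell by 1.17 ± 0.1 in batch 2 (log2, SE, edgeR adjusted p = 2.15e-09), which ranked 12 of the 12211 genes. Igfbp7 fell by 1.71 ± 0.309 (edgeR adjusted p = 0.000284) and Igfbp3 fell by 0.63 ± 0.162 (edgeR adjusted p = 0.00588). Igfbp5 fell in every group, by 1.36 (BCAM high), 1.17 (BCAM low) and 1.001 (differentiated cells). On the TPM scales Igfbp3 was not called between batches (limma adjusted p = 0.171 and 0.154). Batch and group were balanced, so the comparisons of groups above do not rest on this shift, whose source cannot be named from the labels.

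Genes whose log2 CPM ran most like that of a member over the 24 libraries were looked for among 9016 genes averaging 10 CPM or more, and these correlations are descriptions across libraries that share groups, batches and depth. For Igfbp5 they were Prr13 (Pearson r = 0.918), Tppp3 (0.89) and Ly6a (0.883). With the means of group and batch taken out, they were Plaur, the urokinase receptor gene (0.863), and the keratins of simple epithelia Krt18 (0.782) and Krt8 (0.766). For Igfbp7 they were Sh3bp1 (0.919), the endocytic receptor gene Lrp1 (0.914) and Apoe (0.912), and with means taken out Vim (0.8), Ctdspl (0.79) and Sh3bp1 (0.771). For Igf1r they were Spin1 (0.851), Man2a2 (0.787) and Ehd2 (0.784), and for Igfbp3 Acer3 (0.851), Six2 (0.826) and Sltm (0.818). For Igfbp6 they were Bgn (0.677), Pdcd10 (0.655) and Ogn (0.622). For Igfbp4, with means taken out, the member most like it was Igfbp7 (0.681). The Pearson r of Igfbp5 with Igfbp7 was 0.057 over all libraries and -0.308 with means taken out, and neither was tested.

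The rest of the pathway was read from 6 lists of 48 genes, of which 35 could be tested. BCAM high against BCAM low gave 0 higher and 2 lower, 2 of 35 beside 6.95% of all genes, with a list median of 0.006 on the log2 scale beside -0.005 for all genes. BCAM high against differentiated gave 11 higher and 5 lower, and BCAM low against differentiated 9 higher and 4 lower, beside 41.2% and 33.4% of all genes. The list medians there were 0.34 and 0.29, beside 0.02 for all genes in each. The ligand gene Igf1 and the adaptor gene Grb14 had the lowest log2 fold changes of the 35 tested genes in BCAM high against differentiated.

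Of the ligands, Igf1 was lower in both BCAM groups than in differentiated cells. BCAM high libraries had 0.696 to 4.09 CPM (median 1.46), BCAM low libraries 0.748 to 9.82 (median 2.27) and differentiated libraries 3.13 to 53.5 (median 12.3). The log2 fold change was -3.23 ± 0.593 (SE, edgeR adjusted p = 6.75e-05) for BCAM high and -2.23 ± 0.568 (edgeR adjusted p = 0.00322) for BCAM low. Both differed between the batches, with differentiated means of 8.28 ± 4.13 CPM in batch 1 (SD, n = 5) and 37.1 ± 19.0 in batch 2 (n = 3). Without the batch 2 differentiated libraries the values were -1.83 (edgeR adjusted p = 0.0079) and -0.89 (edgeR adjusted p = 0.208). Thyroid follicle sums rose alongside in those libraries, and their part was not tested.

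Igf2 did not pass the filter on counts. Its counts summed to 86 over BCAM high, 77 over BCAM low and 10 over differentiated libraries, and the ratio of BCAM high to differentiated was 4.64 (exact 95% interval 2.41 to 10.02, counting error only). The receptor genes Insr, of the insulin receptor, and Igf2r, which takes IGF2 up for breakdown, were present in every library. Insr was level, at 50.9 ± 10.4, 50.9 ± 8.96 and 52.6 ± 16.1 CPM (SD, n = 8) in the 3 groups. Igf2r was higher than in differentiated cells by 0.37 ± 0.132 in BCAM high (SE, edgeR adjusted p = 0.0232) and 0.39 ± 0.132 in BCAM low (edgeR adjusted p = 0.0231). Without the batch 2 differentiated libraries these were 0.25 and 0.27 and were not called (edgeR adjusted p = 0.184 and 0.155). With transcript length offsets they were 0.02 and 0.16 (edgeR adjusted p = 0.965 and 0.72) and in batch 1 alone 0.19 and 0.32 (edgeR adjusted p = 0.366 and 0.11), and the BCAM low call also ended in batch 2 alone and on both TPM scales. Leaving out BCAM high replicate 6 or 7 or differentiated replicate 6 ended the first call, and BCAM low replicate 4 or differentiated replicate 6 the second.

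Of the adaptors below the receptor, Irs2 was higher in BCAM high than in differentiated cells (0.85 ± 0.177, SE, edgeR adjusted p = 0.000257) and was at 0.45 ± 0.178 in BCAM low (edgeR adjusted p = 0.0527). Irs1 was called in no comparison of groups (edgeR adjusted p = 0.117 to 0.584) and was higher in batch 2 by 1.79 ± 0.282 (edgeR adjusted p = 4.4e-05). Grb14, an adaptor that inhibits the insulin receptor, was lower in BCAM high than in BCAM low, with 1.82 to 4.69 against 3.54 to 13.9 CPM (-1.24 ± 0.235, SE, edgeR adjusted p = 0.00131, and 0.0552 in batch 1 alone). In differentiated libraries it reached 18.8 to 95.8 CPM, above every BCAM library, with log2 fold changes of -3.83 ± 0.231 for BCAM high (edgeR adjusted p = 1.37e-13) and -2.60 ± 0.212 for BCAM low (edgeR adjusted p = 1.22e-10). Grb10, a related inhibitory adaptor, was at -2.20 in BCAM high against differentiated (edgeR adjusted p = 0.00176, and 0.0677 in batch 1 alone) and at -2.79 in BCAM low (edgeR adjusted p = 0.000232).

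**Figure D5:**
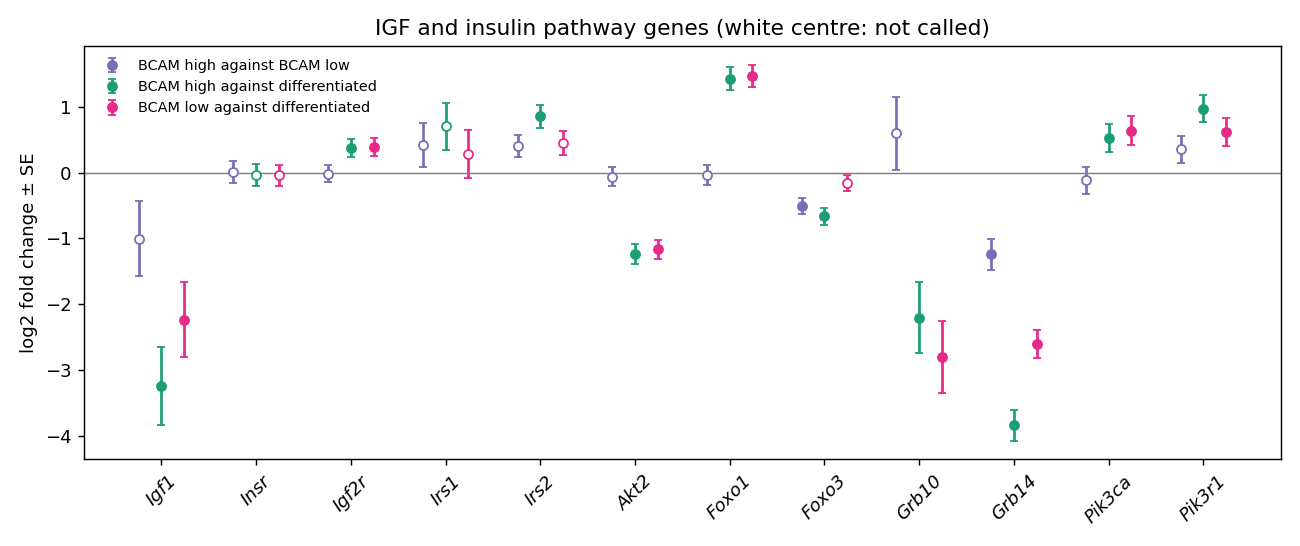
Log2 fold change with its standard error as bars (vertical) of ligand, receptor, adaptor and PI3K-AKT pathway genes in the 3 comparisons of groups, where a white centre marks a value that was not called. Grb14 and Igf1 were lowest in BCAM high against differentiated, at -3.83 and -3.23, and Foxo1 was highest at 1.43 there and 1.46 in BCAM low against differentiated.

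In the PI3K, AKT and mTOR list all 21 genes were tested. In BCAM high against differentiated 10 were called (8 higher, 2 lower), and in BCAM low against differentiated 7 (6 higher, 1 lower). Of all genes 41.2% (19% higher, 22.2% lower) and 33.4% (16.3% higher, 17.1% lower) were called there. The totals do not set the list apart, and the direction of its calls was not tested. Foxo1, a transcription factor that AKT keeps out of the nucleus, had 22.7 to 44.3 CPM in BCAM high libraries, against 17.4 to 43.3 for BCAM low and 9.88 to 15.1 for differentiated libraries. Neither BCAM group overlapped the differentiated one. Its log2 fold change was 1.43 ± 0.171 (SE, edgeR adjusted p = 8.47e-08) and 1.46 ± 0.172 (edgeR adjusted p = 1.12e-07, and 0.0626 in batch 2 alone). Akt2, a kinase of the insulin pathway, was lower in the BCAM groups, at 47.5 to 64.4 and 41.8 to 71.5 CPM against 89.1 to 198.0 CPM (-1.23 ± 0.148 and -1.17 ± 0.148, SE, edgeR adjusted p = 8.22e-08 and 4.19e-07). Both Akt2 differences were larger in batch 2, by -0.93 (edgeR interaction, adjusted p = 0.003) and -1.12 (edgeR interaction, adjusted p = 0.000393), and the thyroid sums of those differentiated libraries were higher too, whose part was not tested. Pik3r1, a regulatory PI3K subunit, was higher in BCAM high than in differentiated cells by 0.97 (edgeR adjusted p = 0.000516, and 0.365 in batch 2 alone). Pik3ca, a catalytic subunit, was higher in BCAM low by 0.64 (edgeR adjusted p = 0.0215), a call that ended on the TPM scales and without differentiated replicate 3 and turned to -0.25 in batch 2 alone (edgeR adjusted p = 0.676). Foxo3 was lower in BCAM high than in BCAM low by 0.51 ± 0.124 (SE, edgeR adjusted p = 0.0106), which was not called on the TPM scale or in batch 2 alone.

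Between the batches 6 of the 35 genes were higher in batch 2 and 1 was lower, beside 21.3% of all genes. In addition to Irs1 they included Grb14 (1.02, edgeR adjusted p = 0.000165), Pdpk1 (0.64, edgeR adjusted p = 0.000394), Igf2bp3 (0.63, edgeR adjusted p = 0.0361) and Pik3r2 (0.50, edgeR adjusted p = 0.00075), and the lower gene was Akt1 (-0.54, edgeR adjusted p = 0.000428). The Akt1 call ended on both TPM scales (limma adjusted p = 0.461 and 0.465) and with transcript length offsets (edgeR adjusted p = 0.0595). The Igf2bp3 call ended when any of 9 single libraries was left out. In the other lists, 1 of 5 genes for the cleavage of binding proteins and 2 of 3 Igf2bp genes could be tested, none called between groups. None of the 3 other IGF carriers passed the filter. The 1 cleavage gene had a called difference between the batches against differentiated cells, at -3.14 for BCAM high and -2.45 for BCAM low. Of the 35 genes, 3 and 6 had such a difference in these comparisons, all lower, beside 8.69% and 11.4% of all genes.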

How the data were processed

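Per the file headers, each of the 24 deposited tables lists, for every transcript, its length and effective length beside an estimated count and TPM. The submitters' processing notes name kallisto (version 46.1), Picard and the build GRCm39, with no role or order. As deposited, estimated counts are not normalized and TPM values are scaled for length to a common sum. The meaning of batch, the index and its annotation were not given in the sources used here.

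Of 117497 transcripts, 116374 matched GENCODE M21 (GRCm38) by identifier without version and were summed to 35855 genes; the 1123 others held 0.317% to 0.595% of a library's counts and were left out. Summed estimated counts were rounded. edgeR 4.0.16 (R 4.3.3; TMM factors, default low-count filter by group, robust quasi-likelihood fit) tested 12211 genes with a mean per group and batch as a covariate, Benjamini-Hochberg adjusted, called under 0.05. SE was taken as the size of the log2 change over root F. A fit with 6 means tested differences between batches. Alternatives were DESeq2 1.42.0 size factors and Wald test, no filter, limma 3.58.1 on log2(TPM + 0.1) and log2(TPM + 1), transcript length offsets, no batch term, a replicate block, 2 groups only, each batch alone and each library left out. Added after seeing the data were the fit without the batch 2 differentiated libraries, the Igfbp2 test, the Igfbp7 to Igfbp5 ratio and the fibroblast list without Dcn. The fits were tested on simulated data.

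The members and lists were chosen with earlier results of these data known. Named are all members, Igf1, Igf2, Insr, Igf2r, Irs1 and Irs2, per comparison the 5 other called pathway genes with the largest change, and, per tested member, the 3 genes most alike by Pearson r over all libraries (for Igfbp5 and Igfbp7 also with means taken out). The genes most like Igfbp4 are not reported here. Reads were amplified and carry no molecular identifiers, so an interval or floor reflects counting error alone. Totals of 1824619 to 4440072 counts per library set the precision. Marker lists (summed CPM) for chondrocyte, parathyroid, C-cell and neuroendocrine, immune, ciliated, smooth muscle and Schwann genes were also summed.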

Additional observations from a re-analysis of the deposited data

Results flagged for a closer look

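The Igf1r difference between BCAM low and differentiated cells was not the same in the batches, by -1.34 on the log2 scale (edgeR interaction, adjusted p = 0.000396), as described above. The Igf1 difference also changed between the batches, by -3.24 for BCAM high against differentiated (edgeR adjusted p = 0.0197) and by -3.46 for BCAM low against differentiated (edgeR adjusted p = 0.00732). Neither Igf1 value was called on log2(TPM + 0.1) or with transcript length offsets (adjusted p = 0.0709 to 0.154). The first also lost its call without BCAM high replicate 6 or 7 or differentiated replicate 7.

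Single libraries stood far from the other 7 of their group in 5 of 39 groups of values examined for the members and the 6 fixed pathway genes, by Dixon's ratio above 0.526. Chance gives about 1 in 20. BCAM low replicate 3 was high for Igfbp2 at 12.8 CPM and for Igf2 at 8.71 CPM. Differentiated replicate 1 was high for Igfbp7 at 13.1 CPM and for Igf2 at 4.56 CPM. Differentiated replicate 7, at 0.428 CPM of Igfbp2, held the only count of that gene in its group, and a single count among libraries at 0 always exceeds the ratio.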

How the results depend on the processing

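Under 12 alternatives and with each of 24 libraries left out in turn, Igfbp5 stayed the only member called in BCAM high against BCAM low. The count for BCAM high against differentiated was 5 with no filter on low counts (Igfbp2 and Igf1r added, beside 5615 of 30467 genes called), 2 to 4 otherwise, and 3 to 4 with a library left out. That for BCAM low against differentiated was 4 on either TPM scale (beside 4901 and 4862 of the 12211 genes) and 1 in batch 2 alone (beside 2067), and otherwise 2 to 3. For the difference between batches of BCAM high against differentiated it was 0, and 1 with no filter (beside 1229 of 30467) and 0 to 1 with a library left out (differentiated replicate 6 or 8). The replicate block left the counts at 1, 3 and 2. Same-numbered libraries correlated over 0.1 in 7 of 24 pairs (0.031 to 0.176), short of every pair, and the labels do not say that a number marks a shared source, so the numbers were not taken as pairing. Within their batch 22 of 24 correlated best with their own number, a hint from the data and not from the design. Pseudocount 1 left 0 of the 18 TPM neighbours different.

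Values that changed sign were mostly small and uncalled, and the cause was not tested. On log2(TPM + 0.1) and log2(TPM + 1), Igfbp4 became 0.38 and 0.29 (BCAM high against BCAM low), 1.28 and 0.89 (BCAM high against differentiated) and -0.30 and -0.083 (batch), Igf1r 0.28 and 0.24 (batch), and Igfbp6 0.25 on the first scale (BCAM low against differentiated). With transcript length offsets Igf1r became -0.13 (BCAM high against BCAM low) and 0.097 (batch), and Igfbp4 -0.012 (batch). Igfbp6 in BCAM high against differentiated became -0.28 with no batch term, -0.004 with the replicate block, -0.99 in batch 1 alone and -0.95 without the batch 2 differentiated libraries. Without those libraries Igfbp4 became 0.010 (BCAM high against differentiated) and -0.044 (batch), and Igfbp6 0.061 (batch). In batch 1 alone Igf1r became -0.19 and the Igfbp2 difference -0.333 CPM (BCAM high against BCAM low). In batch 2 alone Igfbp4 became 0.67 (BCAM high against BCAM low) and -0.71 (BCAM low against differentiated), Igf1r -0.006 and -0.50 against differentiated, Igfbp6 2.10 and Pik3ca -0.25 (both BCAM low against differentiated).

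With a library left out, Igf1r ran from -0.055 to 0.069 and the Igfbp2 difference from -0.278 to 1.56 CPM (BCAM high against BCAM low), Igfbp4 from -0.43 to 0.43 and Igfbp6 from -0.66 to 0.49 (BCAM high against differentiated), Igfbp4 from -0.029 to 0.87 (BCAM low against differentiated), and Igf1r from -0.072 to 0.077 and Igfbp4 from -0.37 to 0.32 (batch). Depth limits Igfbp2, Igfbp4 and Igfbp6, which rest on 1 to 395 summed counts in a group.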

Other observations

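Markers of further cell types were summed in each library. Median sums for BCAM high, BCAM low and differentiated libraries were 63.1, 114.1 and 594.5 CPM for 7 chondrocyte genes and 2.06, 1.202 and 924.9 CPM for 3 parathyroid genes, which reached 17750 CPM in 1 differentiated library. Those of 7 C-cell and neuroendocrine genes were 10.8, 42.7 and 811.2 CPM, and those of 7 ciliated genes 8.68, 16.9 and 165 CPM. Immune genes (7) had medians of 46.0, 88.1 and 44.7 CPM, smooth muscle and pericyte genes (8) 35.3, 21.6 and 21.1 CPM, and Schwann genes (4) 3.82, 4.10 and 15.3 CPM.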
